A study of Mus musculus with 12 samples.

Results

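Aminoacyl-tRNA synthetases are the enzymes that join each amino acid to its transfer RNA, and the data described here are the RNA levels of their 38 genes in mouse embryonic stem cells with and without a Bcat1 knockout. The genes were chosen by symbol, as an amino acid letter followed by "ars" with the endings the family uses, plus Eprs, and by a sum of at least 10 counts over all libraries. All 38 of the 38 symbols that matched, among 52535 gene entries, passed that minimum, and the scarcest, Tarsl2, had 594 counts in all. Of these, 21 encode cytosolic enzymes and 17, with symbols ending in 2, encode mitochondrial ones. Tarsl2 also ends in 2 but encodes a second cytosolic threonyl enzyme, and it was counted with the cytosolic group.

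The 6 libraries came from E14, a mouse embryonic stem cell line, grown in every group in serum medium with LIF and 2i, the inhibitor pair that holds such cells in a naive state. There were 2 libraries of wild type (WT), 2 of clone 1 and 2 of clone 2 of the genotype labelled Bcat1-KO. Bcat1 encodes the cytosolic transaminase that starts the breakdown of leucine, isoleucine and valine. Each clone is 1 cell line derived from E14, and a clone's own history cannot be told apart from an effect of the genotype when that clone is compared with WT alone. Nothing in the labels gives separate cultures for the libraries of a group, so the spread behind each p-value is that between libraries and may be technical. In bulk RNA, fewer cells of a kind and less RNA per cell cannot be told apart.

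Most amino acids have a synthetase of their own, and the cytosol and the mitochondrion each translate with their own tRNAs. Most mitochondrial enzymes have a nuclear gene of their own, while Gars and Kars each supply both compartments from 1 gene. Several cytosolic enzymes sit together in the multi-synthetase complex, which is held by the scaffold proteins Aimp1, Aimp2 and Eef1e1. Uncharged tRNA is the signal sensed by the kinase GCN2, which leads to translation of the transcription factor ATF4, and many cytosolic synthetase genes are known targets of ATF4.

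Gene counts totalled 11976149 to 13923262 per library. All 7 stem cell markers examined were abundant, with a summed level of 5777 to 5914 CPM in WT, 5262 to 5349.9 in clone 1 and 5310.0 to 5310.3 in clone 2, where CPM is the count scaled to the TMM-adjusted library size. Of 7 fibroblast and feeder markers, 3 (Dcn, Lum and Postn) had 0 counts in every library. The summed level of that list was 3.09 to 4.65 CPM in WT, 7.67 to 9.36 in clone 1 and 2.96 to 3.95 in clone 2. Within it, Col1a2 was called higher for the knockout label (edgeR log2 fold change 4.80 ± 0.86 (SE), adjusted p = 0.0120). It was scarce, with at most 0.07 CPM in WT and at most 1.74 in the clones. Col1a1 and Thy1 were not called in that comparison. The part of these markers in the results below was not tested. Bcat1 RNA stood at 602 and 614 CPM in the WT libraries, at 617 and 662 in those of clone 1, and at 583 and 579 in those of clone 2. The log2 fold change of the genotype was 0.01 ± 0.08 (SE; edgeR adjusted p = 0.977), so the RNA does not check the label, and directions given for the clones rest on it.

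The cytosolic synthetase genes differed more between the clones than between the knockout label and WT. Their median log2 fold change was 0.35 for clone 2 against clone 1 and -0.08 for the knockout label against WT. As a share of all gene counts, the 21 cytosolic genes made up 0.767% and 0.7785% in the WT libraries. They took 0.675% and 0.657% in those of clone 1 and 0.838% and 0.822% in those of clone 2. The groups did not overlap: clone 1 was below WT and clone 2 above it. The 17 mitochondrial genes made up 0.0839% and 0.0831% in the WT libraries, 0.0864% and 0.0874% in those of clone 1, and 0.0840% and 0.0841% in those of clone 2. The mitochondrial share thus lay within a narrow band, slightly higher in clone 1, the clone in which the cytosolic share was lowest. The 95% Wilson interval of each share reached at most 0.00541 percentage points to either side, which covers counting error only.

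**Figure D1:**
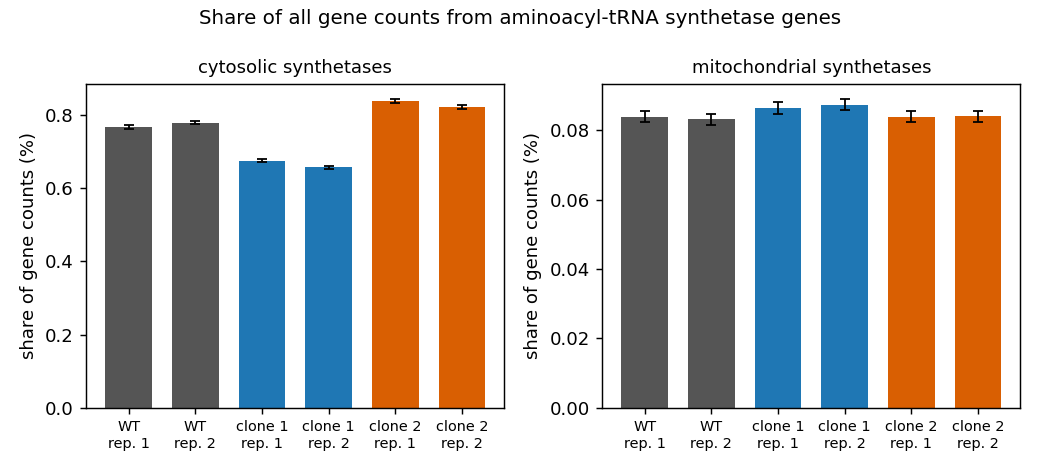
Share of gene counts (%, axis from 0) taken by the cytosolic (left) and mitochondrial (right) synthetase genes in each of the 6 libraries; error bars are 95% Wilson intervals. The cytosolic share is 0.675% and 0.657% in clone 1 and 0.838% and 0.822% in clone 2, with WT between them, while the mitochondrial share spans 0.0831% to 0.0874% over all libraries.

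Clone 2 was compared with clone 1 directly, a contrast in which the WT level cancels. Of 38 members, 14 were higher in clone 2 and 1 was lower at an adjusted p under 0.05 (edgeR, quasi-likelihood; Benjamini-Hochberg over all 14946 genes tested). Among all genes tested, 14.3% were called, 6.62% higher and 7.71% lower. The 14 were 13 of the 21 cytosolic genes and 1 of the 17 mitochondrial genes, and the 1 lower was the cytosolic Tarsl2. The median log2 fold change was 0.35 over the cytosolic genes and -0.05 over the mitochondrial ones, against 0.00035 over all genes tested. Both libraries of clone 2 lay above both of clone 1 for 17 of the 21 cytosolic genes and for 3 of the 17 mitochondrial genes, where 26.9% of all genes did so. They lay below clone 1 for 1 cytosolic and 5 mitochondrial genes, against 27.7% of all genes, and 54.6% did not overlap in either direction. In 15 of 16 pairs of a cytosolic gene and a mitochondrial gene for the same amino acid, the cytosolic gene had the more positive fold change, and the valyl pair was the exception. Here Eprs, which carries both a glutamyl and a prolyl enzyme, was paired with Ears2 and with Pars2. Leaving out clone 2 replicate 1 brought the calls to 10, the lowest count over the 13 alternatives, and 15 were called by DESeq2.

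**Figure D2:**
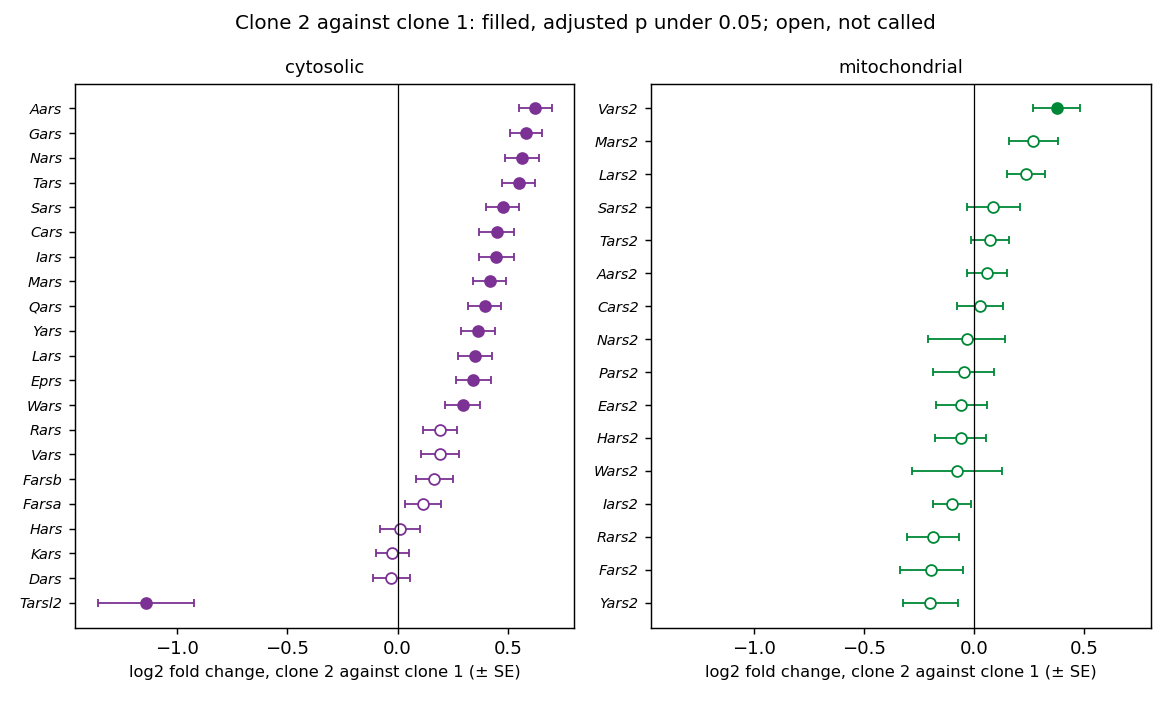
Log2 fold change of clone 2 against clone 1 (x axis, points with SE bars from edgeR) for the 21 cytosolic (left) and 16 of the 17 mitochondrial (right) genes, ordered by value; filled points have an adjusted p under 0.05. In the left panel 13 filled points lie to the right of 0 and Tarsl2 alone lies far to the left; in the right panel Vars2 is the only filled point.

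The alanyl, glycyl, asparaginyl, threonyl and seryl enzymes showed the largest rises between the clones. Aars, the alanyl-tRNA synthetase (chromosome 8, 111033144 to 111057664, GRCm38), stood at 948 and 1029.7 CPM in WT, 772 and 791 in clone 1, while clone 2 had 1189 and 1223. The groups did not overlap, with clone 1 lowest and clone 2 highest. Clone 2 exceeded clone 1 by a log2 fold change of 0.63 ± 0.07 (SE), or 1.54-fold (adjusted p = 2.32e-05). Gars, the glycyl enzyme used in both compartments (chromosome 6, 55038007 to 55079500), had 621 and 601 CPM in WT, 472 and 450.3 in clone 1, against 701 and 680.2 in clone 2. Clone 2 was above clone 1 by 0.58 ± 0.07 on the log2 scale (adjusted p = 5.05e-05). The groups of Gars were ordered as those of Aars.

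Nars, the asparaginyl enzyme (chromosome 18, 64499647 to 64516652), was at 620.4 and 589 CPM in WT, 467 and 426 in clone 1, while clone 2 had 675 and 645. The log2 fold change between the clones was 0.56 ± 0.08 (adjusted p = 1.15e-04), and no library of one group reached the range of another. Sars, the seryl enzyme, whose product also serves selenocysteine tRNA (chromosome 3, 108424865 to 108445209), differed in order: it was at 463 and 461 CPM in WT, 304 and 319 in clone 1, against 422 and 446 in clone 2. Both clones were below WT, clone 1 by more, and clone 2 exceeded clone 1 by 0.48 ± 0.08 (adjusted p = 4.07e-04).

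**Figure D3:**
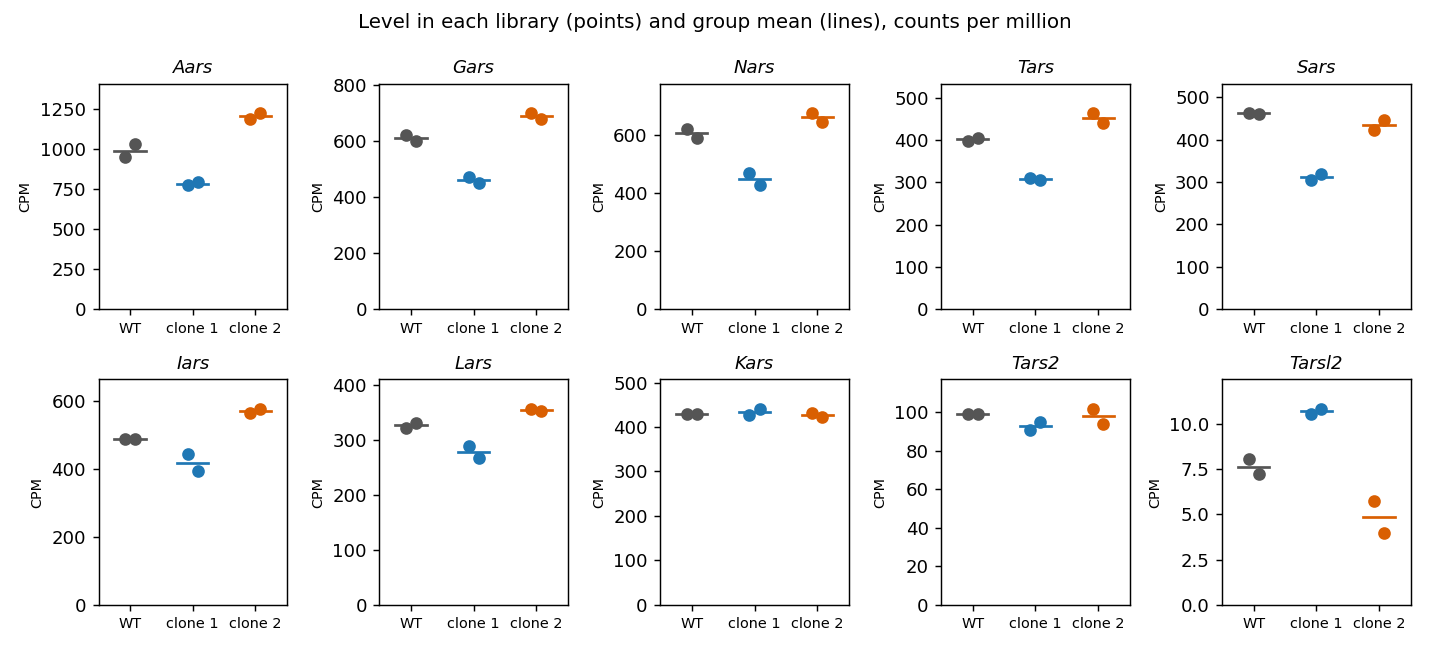
CPM (y axis, from 0) in each library (points) and group mean (lines) for 10 members. Clone 1 is lowest for Aars, Gars, Nars, Tars, Sars, Iars and Lars, the 3 groups of Kars overlap between 422 and 441 CPM, and Tarsl2 is highest in clone 1.

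The threonyl group holds 3 genes, 2 of them cytosolic, and they went in different directions. Tars, the main cytosolic threonyl enzyme (chromosome 15, 11382301 to 11399665), stood at 399 and 405 CPM in WT, 311 and 305 in clone 1, while clone 2 had 464 and 439.8. Its log2 fold change between the clones was 0.55 ± 0.08 (adjusted p = 1.05e-04). Tarsl2, the second cytosolic threonyl enzyme (chromosome 7, 65644898 to 65692091), was scarce, with 50 to 141 counts per library, or 8.02 and 7.24 CPM in WT, 10.5 and 10.8 in clone 1, against 5.74 and 3.95 in clone 2. Its order was the opposite of that of Tars, with clone 1 highest and clone 2 lowest and no overlap. Clone 2 was below clone 1 by a log2 fold change of -1.14 ± 0.22 (adjusted p = 0.00180), although against WT neither clone passed the test (0.49 ± 0.20 in clone 1, adjusted p = 0.0997, and -0.66 ± 0.22 in clone 2, adjusted p = 0.0516). The fall of Tarsl2 in clone 2 lay near the threshold: it was called under 6 of 13 alternatives, among them leaving out clone 1 replicate 1, clone 1 replicate 2 or clone 2 replicate 1, with an adjusted p between 0.0172 and 0.402 over the alternatives. Tars2, the mitochondrial threonyl enzyme, was at 99.1 and 98.9 CPM in WT, 90.6 and 94.96 in clone 1, while clone 2 had 102 and 93.7. The clones overlapped for Tars2, which differed by 0.07 ± 0.09 on the log2 scale (adjusted p = 0.648).

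The enzymes for the branched-chain amino acids, the substrates of BCAT1, were described whatever their values. Iars, the cytosolic isoleucyl enzyme (chromosome 13, 49682100 to 49734267), had 488 and 489.8 CPM in WT, 445 and 394 in clone 1, against 567 and 578 in clone 2. Lars, its leucyl counterpart (chromosome 18, 42202298 to 42262194), had 321 and 331 CPM in WT, 289.5 and 266 in clone 1, while clone 2 had 356 and 352. Both genes were lowest in clone 1 and highest in clone 2 without overlap. The log2 fold change between the clones was 0.45 ± 0.08 for Iars (adjusted p = 9.40e-04) and 0.35 ± 0.08 for Lars (adjusted p = 0.00554), and the call of Lars was lost without clone 2 replicate 1 or clone 2 replicate 2 (highest adjusted p over alternatives 0.0854).

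Vars, the cytosolic valyl enzyme, which associates with the elongation factor 1 complex, was at 463 and 500.1 CPM in WT, 388 and 459.9 in clone 1, against 485 and 484 in clone 2. The 2 libraries of clone 1 were far apart, and the difference between the clones did not pass the test (log2 0.19 ± 0.09, adjusted p = 0.156). This value turned on clone 1: for Vars it was 0.08 without clone 1 replicate 1 (adjusted p = 0.541) and 0.32, and called, without clone 1 replicate 2 (4.84e-04). Vars2, the mitochondrial valyl enzyme (chromosome 17, 35655634 to 35667592), had 55.1 and 54.5 CPM in WT, 40.4 and 46.6 in clone 1, while clone 2 had 56.6 and 56.5. Clone 1 stood well below the others there, and clone 2 narrowly above WT. The exons of Vars2 share 465 bases with Gm20483 on the opposite strand, and with the strand setting not given, reads there cannot be assigned. Vars2 was the 1 mitochondrial gene called between the clones (0.38 ± 0.11, adjusted p = 0.0243), but the call was lost when only the 4 libraries were fitted and without clone 1 replicate 1, clone 2 replicate 1 or clone 2 replicate 2 (highest adjusted p 0.161).

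Of the mitochondrial isoleucyl and leucyl genes, Iars2 did not follow its cytosolic counterpart. Lars2, like Lars, was highest in clone 2, but its clone 1 libraries overlapped WT. Iars2 was at 98.4 and 91.6 CPM in WT, 111.0 and 104 in clone 1, against 102 and 98.7 in clone 2, so that clone 1, lowest for Iars, was highest for Iars2, with a log2 fold change between the clones of -0.10 ± 0.09 (adjusted p = 0.516). Lars2 was at 88.1 and 93.1 CPM in WT, 96.0 and 90.9 in clone 1, while clone 2 had 109.9 and 110.5. Clone 2 lay above the other groups for Lars2, and its rise against WT was called (0.28 ± 0.09, adjusted p = 0.0318), while the difference between the clones was not (0.24 ± 0.09, adjusted p = 0.0789), although it was called without clone 1 replicate 1 (0.0265; highest over alternatives 0.337). The Lars2 call was lost by DESeq2, without either WT library and without either clone 2 library, with a highest adjusted p of 0.233. Iars2 shares 2034 exonic bases with Rab3gap2 on the opposite strand, and because the strand setting of the counting is not given in the sources used here, reads of that stretch cannot be assigned.

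Within the multi-synthetase complex, 5 of 8 enzymes were higher in clone 2 than in clone 1. Outside it, 8 of 13 cytosolic genes were higher too, so the rise was not particular to the complex. Among all genes tested, 6.62% were higher. The 5 in the complex were Iars and Lars, given above, and Eprs, Mars and Qars. Eprs, the joint glutamyl and prolyl enzyme (chromosome 1, 185363044 to 185428360), stood at 823 and 819 CPM in WT, 611 and 532 in clone 1, against 737 and 713 in clone 2. Both clones lay below WT, and clone 2 exceeded clone 1 by 0.34 ± 0.08 (adjusted p = 0.00739), a call lost without clone 2 replicate 1 or clone 2 replicate 2 (highest adjusted p 0.109).

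Mars, the methionyl enzyme, had 352 and 369.8 CPM in WT, 313 and 309 in clone 1, while clone 2 had 422 and 409.6. It rose by 0.42 ± 0.08 between the clones (adjusted p = 0.00113). Its exons share 68 bases with those of Ddit3, a stress response gene on the opposite strand. Qars, the glutaminyl enzyme, was at 348 and 346 CPM in WT, 269 and 268 in clone 1, against 358 and 349 in clone 2. For Qars, clone 2 was close to WT and clone 1 stood apart, with 0.40 ± 0.07 between the clones (adjusted p = 0.00165). The other complex enzymes were not called: the log2 fold change was 0.19 ± 0.08 for Rars, the arginyl enzyme, -0.02 ± 0.07 for Kars, the lysyl enzyme, and -0.03 ± 0.08 for Dars, the aspartyl enzyme. Rars was called without clone 1 replicate 1 (adjusted p = 0.0283; highest over alternatives 0.482). Kars lay between 422 and 441 CPM in all 6 libraries.

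Outside the complex, Cars, Yars and Wars were called higher in clone 2, beside Aars, Gars, Nars, Tars and Sars given above. Cars, the cysteinyl enzyme, stood at 266 and 293 CPM in WT, 223 and 232 in clone 1, while clone 2 had 312 and 309.7, a difference between the clones of 0.45 ± 0.08 (adjusted p = 0.00101). Yars, the tyrosyl enzyme, had 284 and 305 CPM in WT, 240.4 and 247 in clone 1, against 319.9 and 308 in clone 2 (0.36 ± 0.08, adjusted p = 0.00427). For both genes clone 1 was below WT and clone 2 above it. Wars, the tryptophanyl enzyme, was at 172 and 182 CPM in WT, 138 and 134 in clone 1, while clone 2 had 166 and 168 (0.30 ± 0.08, adjusted p = 0.0196). The Yars call was lost without clone 2 replicate 1 (0.0930), and the Wars call without clone 2 replicate 1 or clone 2 replicate 2 (highest 0.172). Farsa and Farsb, the 2 subunits of the phenylalanyl enzyme, had log2 fold changes of 0.12 ± 0.08 and 0.17 ± 0.08 and Hars, the histidyl enzyme, 0.01 ± 0.09, and none of these was called.

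Each clone was also set against WT, and since both comparisons use the same WT libraries they are not independent. In clone 1, 0 members rose and 13 fell, where 21.9% of all genes tested were called, 12.4% higher and 9.53% lower. They were 12 of 21 cytosolic genes and, among 17 mitochondrial genes, Vars2 (-0.33 ± 0.11, adjusted p = 0.0327). The largest falls were those of Sars by 0.57 ± 0.08 (adjusted p = 4.47e-05), Eprs by 0.52 ± 0.08 (1.63e-04), Nars by 0.44 ± 0.08 (6.55e-04) and Gars by 0.41 ± 0.07 (7.94e-04). Tars, Wars, Qars, Aars, Cars, Yars, Rars and Lars fell by 0.23 to 0.38. The median log2 fold change was -0.24 over the cytosolic genes and -0.02 over the mitochondrial genes, against -0.0010 over all genes tested. With WT replicate 2 left out, 6 members remained called (Eprs, Gars, Nars, Qars, Sars and Tars), and these 6 were called under all 13 alternatives. Without WT replicate 2 the calls of Aars (adjusted p = 0.0648), Wars (0.0542) and Cars (0.170) were lost, as was that of Yars, which was lost also without WT replicate 1 and with upper-quartile size factors (highest 0.184). The calls of Rars, Lars and Vars2 were lost when any 1 WT or clone 2 library was left out, when only the 4 libraries were fitted and with upper-quartile size factors. That of Lars was lost also without clone 1 replicate 2, and that of Vars2 also without clone 1 replicate 1 and by DESeq2, with a highest adjusted p of 0.163 for Rars, 0.208 for Lars and 0.156 for Vars2.

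In clone 2, 2 members rose and 2 fell against WT, where 17.9% of all genes tested were called, 10.1% higher and 7.81% lower. Aars, lower in clone 1, was the 1 member called in opposite directions in the clones, as were 0.401% of all genes, while 0 members were higher in both (5.77% of all genes) and 0 lower in both (3.3%). Aars rose by 0.29 ± 0.07 (adjusted p = 0.0111) and Lars2 as given above. Among those that fell was Yars2, the mitochondrial tyrosyl enzyme, which went from 42.2 and 39.4 CPM to 28.4 and 34.4, and fell by 0.38 ± 0.12 (adjusted p = 0.0433). The median was 0.05 over the cytosolic genes and -0.02 over the mitochondrial ones, against -0.0017 over all genes tested. None of these 4 calls held under all 13 alternatives: 1 member was called by DESeq2 and 0 without WT replicate 1. Leaving out WT replicate 2 left 1 call, leaving out clone 2 replicate 1 left 1 (a member outside the 4) and leaving out clone 2 replicate 2 left 1. There were 10 calls, 6 higher and 4 lower, when only the 4 libraries of clone 2 and WT were fitted. Clone 1 against WT, fitted in that way, also had 10, all lower. The counts of 13 for clone 1 and 4 for clone 2 thus depend on the spread shared by the 3 groups. The highest adjusted p over alternatives was 0.164 for Aars and 0.398 for Yars2.

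**Figure D4:**
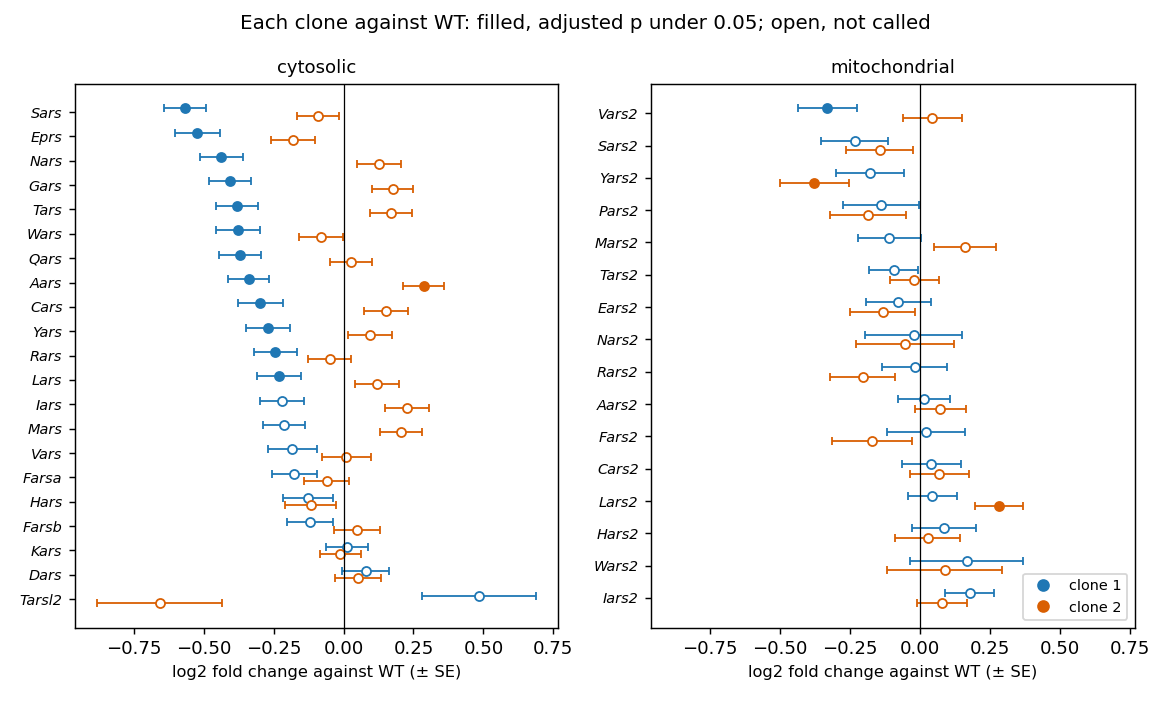
Log2 fold change of clone 1 (blue) and clone 2 (orange) against the same 2 WT libraries (x axis, points with SE bars), the 21 cytosolic genes on the left and 16 of the 17 mitochondrial genes on the right; filled points have an adjusted p under 0.05. In clone 1, 12 cytosolic genes are filled and all lie to the left of 0, while in clone 2 Aars is the only filled cytosolic point.

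Taken as 1 genotype, the libraries labelled knockout showed 0 called members among 38 by edgeR, where 6.36% of all genes tested were called, 4.25% higher and 2.11% lower. In this fit the difference between the clones enters the spread, so members that split the clones can hardly be called. The SE of Aars was 0.19 here and 0.07 for clone 1 against WT. The count of 0 is therefore not on the same footing as the counts of the other comparisons. DESeq2 called 0 too, and at an unadjusted p under 0.05 there was 1, Eprs, at -0.34 ± 0.12 on the log2 scale (adjusted p = 0.133). The median log2 fold change was -0.08 over the cytosolic genes and -0.06 over the mitochondrial genes. All 4 libraries labelled knockout lay above both WT libraries for 1 member, Iars2, and below them for 8, where 18.3% and 16.7% of all genes tested did so, 35% in all. Of those 8, 6 were cytosolic (Eprs, Farsa, Hars, Rars, Sars and Wars) and 2 mitochondrial (Ears2 and Yars2). The count of calls was 1 with no filter beyond 1 count. It was 3 (Eprs, Sars and Wars, all cytosolic and lower) for the mean of both clone contrasts, where the difference between the clones stays out of the spread.

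Levels can be compared between genes only per length, here as CPM per kilobase of annotated exon. In WT, the cytosolic genes ranged from 1.13 for Tarsl2 to 195.9 for Gars, with a median of 64.6, and the mitochondrial genes from 1.47 for Wars2 to 19.5 for Rars2, with a median of 8.17. Tarsl2 was the lowest of all 38 genes, and the other 20 cytosolic genes all lay above the highest mitochondrial gene. After Gars, the order was Nars with 138.8 ± 5.13 (SD, n = 2), then Aars with 106.5 ± 6.25 and Mars with 105.4 ± 3.74, a neighbouring pair that did not differ beyond the spread of its libraries. In all 16 pairs for the same amino acid the cytosolic gene was higher per length, by 3.82-fold for Yars over Yars2 to 79.9-fold for Nars over Nars2, with a median of 5.97-fold. The exon length counts every annotated exon, so a gene with rarely used exons, or one that shares exons with a neighbour as Aars shares 1326 bases with Exosc6, is scaled down.

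**Figure D5:**
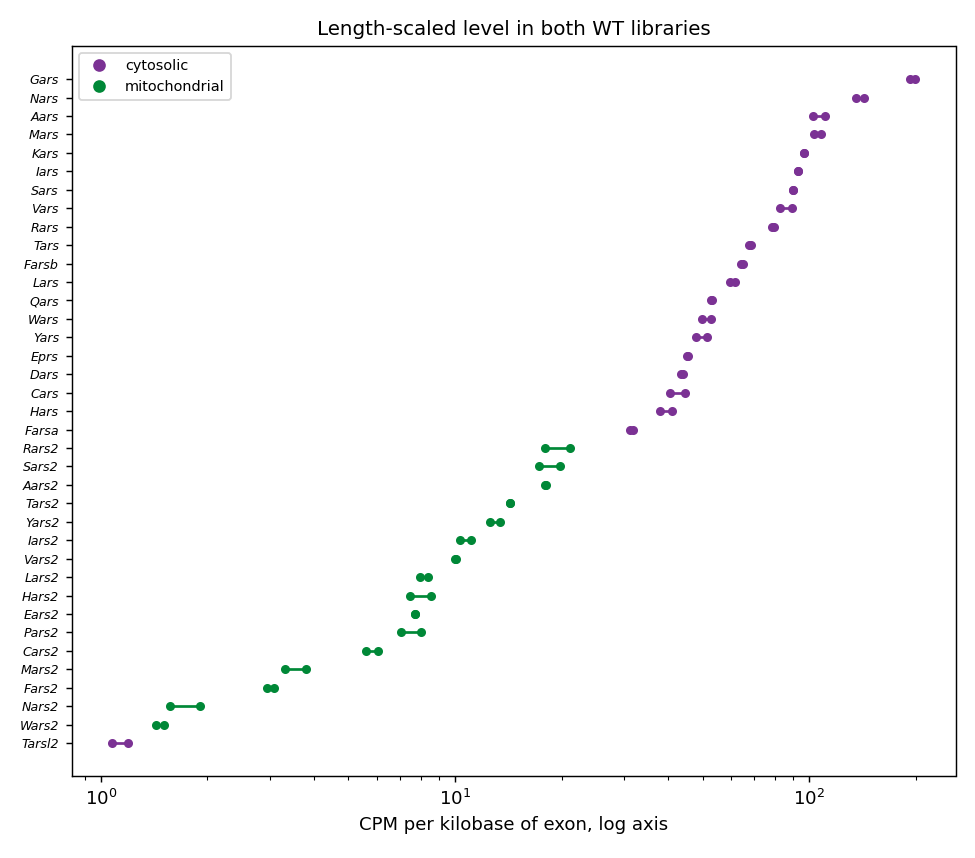
Level per length (CPM per kilobase of exon, log axis) of 37 of the 38 genes in the 2 WT libraries, joined by a line, with genes ordered by their mean. The cytosolic genes other than Tarsl2 occupy the upper part, from Farsa at 31.5 to Gars at 195.9, above every mitochondrial gene drawn.

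Because many cytosolic genes moved together between the clones, their promoters were searched for TGATGNAA (N is any base), the core of the composite element that ATF4 and C/EBP factors are known to bind. The windows were those of RefSeq on GRCm38.p6, from 250 bases before to 50 bases after a gene's start, read on both strands, and 28 of 38 members matched, Mars through its newer symbol. The motif was present in 5 of 14 cytosolic genes with a window and in 0 of 14 mitochondrial genes, against 4.51% of 27025 genes with a window and 2.73% of those tested. At such shares, 0 of 14 does not set the mitochondrial genes apart from other genes. All 5 (Aars, Gars, Iars, Tars and Yars) were among the 10 genes with a window that were called higher in clone 2 than in clone 1. Most of the 14 cytosolic genes with a window were called higher, with or without the motif. Without it, Eprs, Mars, Qars and Sars were called higher, and Dars, Farsa, Farsb, Kars and Tarsl2 were not. Of 745 genes outside the family called higher in clone 2 than in clone 1, 4.03% held the motif. A match is a description of these letters and not a bound site, and its absence from a window says nothing of the factor elsewhere. The motif was chosen after the values were seen, and whether it has a part in the difference between the clones was not tested. For each of the 5 genes a single match, not every match found, is shown 5′ to 3′. The strand is the one that reads TGATGNAA, with the motif in capitals:
Aars: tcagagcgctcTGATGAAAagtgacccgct
Gars: cgcccggtgcaTGATGAAAtagcgcagcca
Iars: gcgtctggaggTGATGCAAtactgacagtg
Tars: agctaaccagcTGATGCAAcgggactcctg
Yars: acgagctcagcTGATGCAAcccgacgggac
The windows shown are chr8:111033840-111033869 for Aars, chr6:55037960-55037989 for Gars and chr13:49682126-49682155 for Iars, all on the minus strand, and chr15:11399655-11399684 for Tars and chr4:129189895-129189924 for Yars, on the plus strand. Of the sites shown, that of Gars ends 23 bases and that of Tars 8 bases before the start, while that of Aars begins 9 bases, that of Iars 7 bases and that of Yars 3 bases after the start base. The start is that of the RefSeq window. The gene positions given above come from another annotation, GENCODE M21, and can differ. In GENCODE, Aars begins at 111033144 and Yars at 129189760, so both sites lie well inside the gene there.

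Other genes were examined as lists, and the lists differed in direction. Among 18 ATF4 targets outside the family, 13 were higher and 0 lower in clone 2 than in clone 1, where 6.62% and 7.71% of all genes tested were. The median log2 fold change of these targets was 0.75. The smallest p-values belonged to Atf5, a stress response transcription factor, with 1.83 ± 0.13, Psat1, an enzyme of serine synthesis, with 0.89 ± 0.08, Mthfd2, a mitochondrial folate enzyme, with 0.87 ± 0.08, and Trib3, a pseudokinase that restrains the stress response, with 1.20 ± 0.11. The adjusted p of these genes reached at most 2.41e-06. Against WT, 1 of the 18 rose and 10 fell in clone 1, where 12.4% and 9.53% of all genes tested did. In clone 2, 10 of them rose and 2 fell, where 10.1% and 7.81% of all genes tested did. The motif was present in 7 of 17 ATF4 targets with a window, 41.2%. That share depends on how the list was chosen and says nothing about these libraries. The list was drawn up as known targets of ATF4, several of which other factors regulate too, and activity of ATF4 was not measured.

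Of the 3 scaffold proteins of the multi-synthetase complex, 0 were called between the clones (edgeR; 1 at an unadjusted p under 0.05), and Eef1e1 fell in clone 1 against WT by 0.39 ± 0.10 (adjusted p = 0.00726). Of 12 partners of charging, 1 was higher and 2 lower in clone 2 than in clone 1, or 25% called against 14.3% of all genes tested. The 2 lower were Gatb and Dtd1. Gatb, a subunit of the amidotransferase that completes mitochondrial glutaminyl-tRNA after Ears2 has charged it with glutamate, differed by -0.79 ± 0.13 (adjusted p = 4.27e-04). Dtd1, which removes D-amino acids from tRNA, differed by -1.003 ± 0.20 (adjusted p = 0.00300). Among 8 cytosolic and mitochondrial elongation factor genes, 1 was higher, Eef1a1 by 0.27 ± 0.06 (adjusted p = 0.00629), and 7 were not called. That is 12.5% of the list, where 14.3% of all genes tested were called.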

How the data were processed

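The authors deposited whole read counts per gene symbol, without normalisation. The tools listed in the submitters' processing notes, with no roles, are HISAT2 (2.1.0), HTSeq (0.9.1) and DESeq2 (1.18.1), and the build is mm10. How strand was set and which annotation was counted is not given in the sources used here. The 5 HTSeq summary entries stayed out of library sizes and tests; ambiguous reads were 6.96% to 9.10% and reads with several alignments 15.6% to 16.6% of a library. The 6 time course samples were left out. Per the labels' protocols, ribosomal RNA had been removed from total RNA. Tests used edgeR 4.0.16 (filterByExpr, TMM, quasi-likelihood F test, two-sided, Benjamini-Hochberg at 0.05 over all genes) in R 4.3.3. The genotype fit set 4 libraries labelled knockout, from 2 clones, against 2 of WT, and treats libraries of 1 clone as independent; contrasts involving a single clone used 3 groups. CPM used TMM-scaled library sizes. Libraries of a group differed by more than sampling noise, and most in clone 1 (chi-square per gene 8.79, against 3.57 in WT and 3.27 in clone 2). The 3 groups share 1 estimate of the spread, which averages over this difference. Positions and exon lengths are those of GENCODE M21 (GRCm38, which mm10 also names). The fits were tested on simulated data. Given with every library's value were the first 14 called members by smallest adjusted p over 4 comparisons, and all leucyl, isoleucyl, valyl and threonyl enzymes. Members, lists and tests were chosen with earlier results of these data known, and the motif after the values were seen. Some items, among them 1 member, are not reported here. Alternatives were DESeq2 1.42.0, other size factors and filters, a replicate block, other fits of the clones and leaving out each library. Figures used matplotlib 3.10.9.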

Additional observations from a re-analysis of the deposited data

Results flagged for a closer look

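The level of 15 members differed between the clones, by the direct test of clone 2 against clone 1. The log2 difference was 0.63 for Aars, 0.58 for Gars, 0.55 for Tars, 0.56 for Nars and 0.48 for Sars. It was 0.45 for Iars, 0.45 for Cars, 0.42 for Mars, 0.40 for Qars, 0.36 for Yars and 0.35 for Lars. For Eprs it was 0.34, for Wars 0.30 and for the mitochondrial Vars2 0.38, while Tarsl2 went the other way with -1.14.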

How the results depend on the processing

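Leaving out each library gave 10 to 18 members called between the clones, 6 to 15 for clone 1, 0 to 10 for clone 2 and 0 for the genotype. For clone 2 the count was 1 by DESeq2, 9 with the replicate block and 10 in a fit of 4 libraries. The genotype had 1 call when every gene with a count was kept, and 3 when both clone contrasts were averaged. The cytosolic minus mitochondrial median, with each library left out, lay between 0.33 and 0.42 between the clones, -0.26 and -0.18 for clone 1, 0.0208 and 0.0868 for clone 2, and -0.0874 and 0.0330 for the genotype, whose sign thus was not stable. Counting Tarsl2 as mitochondrial moved no such median by more than the spread between replicates. Leaving out Gars and Kars could not move them, since the 2 genes lie on opposite sides of the cytosolic median in every comparison. Correlations of deviations between libraries of equal replicate number were 0.05 for WT and clone 1, -0.01 for WT and clone 2 and 0.13 for the clones. With the replicate block, calls over all genes went from 2141 to 3007 between the clones. They went from 3280 to 4410 for clone 1, 2674 to 3685 for clone 2 and 951 to 646 for the genotype. The labels do not say whether equal numbers share a culture or day, so pairing was not settled. The replicate block gave 19 calls between the clones, 16 for clone 1 and 0 for the genotype. Between the clones it added Lars2 (adjusted p = 0.0317), Rars (0.0365) and Vars (0.0318), and it added Tarsl2 in clone 2. Of 15 calls between the clones 10 held under all 13 alternatives, and the 15 kept their sign. Of 1976 alternative values of single members, 55 lost a call, 55 gained one and 0 changed direction across the threshold. Tarsl2, with 50 to 141 counts per library, has the widest error of the called members.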
